A study of Homo sapiens with 6 samples.

Results

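*CCBE1*, *FRMD1*, *SPP1*, *CABP7*, *KLHDC8A* and *FAM131C* are 6 human genes that stood at very low counts in SH-SY5Y cells given a control adenovirus and at far higher counts in cells given Flag-tagged ERRγ. They were chosen by their measured counts in these libraries, as genes with very large rises other than *LRP2*, so the rises are given here as a description and carry no test. The 6 are among 67060 genes in the count table, and all 6 were among the 24500 genes that passed the filter on low counts. SH-SY5Y is a cell line of human neuroblastoma with catecholaminergic character. Both groups were grown alike and received 0.5 µl of an adenovirus for 24 h. The control group received Ad CMV GFP (libraries numbered 1, 3 and 4). The other group received Ad CMV 3xFlag-*Esrrg* (libraries numbered 2, 3 and 4), whose CMV promoter drives the coding sequence of mouse *Esrrg* with a 3xFlag tag. The labels call the delivery a transfection, whereas the methods describe infection. The labels do not say whether the 3 libraries of a group came from separate cultures, so p-values measure only the spread between these libraries, which may be technical.

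ERRγ, the product of *ESRRG*, is an orphan nuclear receptor. It binds DNA without a known natural ligand, recognises an extended element with the core AAGGTCA, and works with the PGC-1 coactivators on genes of mitochondrial respiration. In neurons it is best known for supporting oxidative metabolism. The 6 genes described here are known for other roles or are little studied. For *KLHDC8A*, the paper that reported these data names it among genes raised by ERRγ in SH-SY5Y cells. The paper also found *KLHDC8A* reduced in mouse midbrain lacking *Esrrg*, but did not list it among genes raised there by *Esrrg* overexpression. *CCBE1* and *SPP1* encode secreted proteins, *CABP7* a calcium sensor, *FRMD1* a FERM domain protein and *KLHDC8A* a kelch repeat protein, and *FAM131C* is a little-studied gene.

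Reads counted on genes ranged from 24969759 to 29700980 with Ad CMV GFP and from 26513620 to 40859666 with Ad CMV 3xFlag-*Esrrg*. *ESRRG* rose from 2357, 2796 and 2876 counts (libraries 1, 3 and 4) to 15228, 25994 and 26497 counts (libraries 2, 3 and 4), in the direction of the labels. The viral sequence is from mouse, so these counts hold viral reads only as far as they aligned to the human gene. Of the neuroblastoma markers, *TH* and *CHGA* stood at 0 in every library, so a 0 in this table is not read as absence of the RNA. Library 2 of the Ad CMV 3xFlag-*Esrrg* group stood apart. Its reads outside genes made up 46.6% of reads, against 31.6% and 29.5% in libraries 3 and 4 and 51.3% to 52.2% in the control libraries. In these bulk libraries, fewer cells expressing a gene and less of its RNA per cell cannot be told apart.

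The following sequences hold the recognition element around the start sites of the genes, from RefSeq on GRCh38.p14, and are shown because the study's factor binds such elements. The element was searched as TNAAGGTCA on both strands. The shorter core AAGGTCA lies within it, so each match to the longer word is also a match to the shorter. Capitals mark the match. The first 2 sequences are the bases just upstream of *FAM131C* (chr1:16073652-16073901, minus strand, 250 bases) and *KLHDC8A* (chr1:205357091-205357289, minus strand, 199 bases), read toward the gene. In the *FAM131C* sequence the longer word is on the opposite strand and is therefore seen as its reverse complement. *KLHDC8A* has only the core.
FAM131C upstream: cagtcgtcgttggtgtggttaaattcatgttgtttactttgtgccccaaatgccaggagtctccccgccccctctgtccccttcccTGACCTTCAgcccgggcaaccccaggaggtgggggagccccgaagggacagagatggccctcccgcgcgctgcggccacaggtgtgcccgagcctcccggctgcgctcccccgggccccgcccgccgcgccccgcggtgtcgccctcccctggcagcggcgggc
KLHDC8A upstream: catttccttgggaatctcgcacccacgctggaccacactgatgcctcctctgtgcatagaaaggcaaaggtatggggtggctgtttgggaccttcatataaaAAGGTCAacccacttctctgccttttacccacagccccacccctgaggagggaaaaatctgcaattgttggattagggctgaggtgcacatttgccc

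The next 4 sequences are the matches to TNAAGGTCA within 5 kb of a start of *CABP7*, *FRMD1* and *SPP1*, each with 10 bases on either side and read on the strand that holds the word. The *CABP7* match (chr22:29715971-29715979, minus strand) lay at -4.03 kb from the start, that is upstream of it, in an intron of the divergent transcript *CABP7-DT*. Both *FRMD1* matches (chr6:168070441-168070449 and chr6:168071886-168071894, minus strand) lay in introns of the gene. The *SPP1* match (chr4:87979593-87979601, plus strand) lay 3.88 kb downstream of the start, in an exon of at least some annotated *SPP1* transcript.
CABP7 site: agcatcaagtTCAAGGTCAtgccaggaca
FRMD1 site a: acccacagtaTGAAGGTCAtctgctttgc
FRMD1 site b: ccttgagtccTGAAGGTCAgcacaggatg
SPP1 site: ttaacagtaaTTAAGGTCActtctggttt

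Such words are common at the wider distance. TNAAGGTCA lay within 5 kb of a start in 4 of the 6 genes (*CABP7*, *FAM131C*, *FRMD1* and *SPP1*) and in 36.7% of 27305 genes. In the window from 250 bases before to 50 after a start it lay in 1 of the 6, *FAM131C*, against 1.17% of genes. The core AAGGTCA lay in that window in 2 of the 6, *FAM131C* and *KLHDC8A*, against 4.80% of genes, and within 5 kb in 6 of 6 against 84.5%. A match describes these letters and is not a binding site shown in these data. *CCBE1* had the core in introns but not the longer word in this span, which says only that these letters are not there.

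All 6 genes had no overlap between the groups. The lowest library with Ad CMV 3xFlag-*Esrrg* was 33.1 times the highest control library for *CCBE1*, 25.2 times for *SPP1*, 21.7 times for *CABP7*, 14.8 times for *FRMD1*, 9.91 times for *KLHDC8A* and 6.40 times for *FAM131C*, in counts per 1000000 reads scaled between libraries by the TMM method (CPM). These gaps exceed the spread between libraries within each group, which the choice of the genes fixes. Of all tested genes, 27.8% likewise had every treated library above every control library. By the test, 17.3% of them were called higher, 16.8% lower and 34.1% in either direction, a call being an adjusted p below 0.05 with a fold of at least 1.5 (edgeR's quasi-likelihood test, Benjamini-Hochberg adjustment). By fitted log2 fold change *CCBE1* ranked 8, *FRMD1* 11, *SPP1* 12, *CABP7* 13, *KLHDC8A* 34 and *FAM131C* 37 of all tested genes. The 6 were thus not the 6 largest rises. Another 31 genes, 23 of them protein-coding, lay above *FAM131C*, and 19 of the 31 averaged 20 counts or more over the libraries. *LRP2*, the endocytic receptor megalin and the largest rise of all, went from 0, 0 and 1 counts to 542, 739 and 698.

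**Figure D1:**
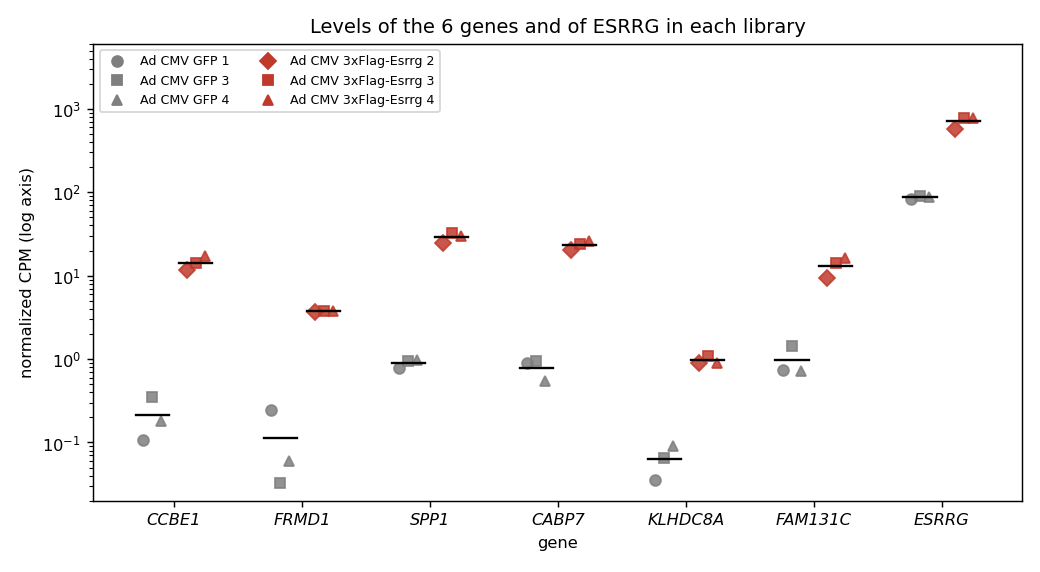
CPM of the 6 genes, with *ESRRG*, in each library on a log axis. Grey points are Ad CMV GFP libraries, red points Ad CMV 3xFlag-*Esrrg* libraries and lines group means. In each of the 6 genes every library with Ad CMV 3xFlag-*Esrrg* lies above every control library, and *KLHDC8A* and *FRMD1* are the lowest in the treated group, at 0.969 and 3.72 CPM on average.

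**Figure D2:**
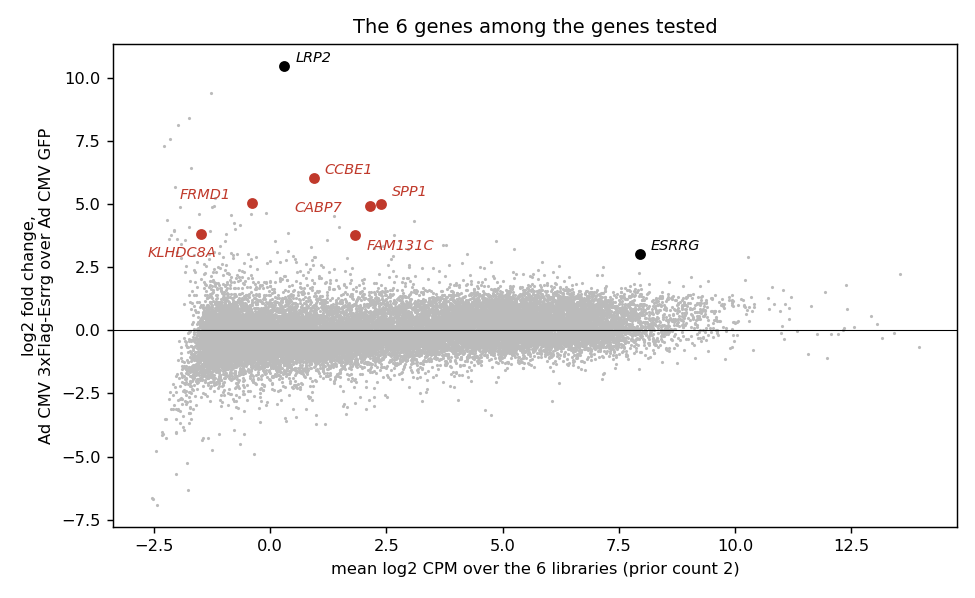
Each point is a tested gene, with its mean log2 CPM over the 6 libraries (prior count 2) on the horizontal axis and its log2 fold change on the vertical axis. The 6 genes, marked in red, lie between 3.75 and 6.02 on the vertical axis, below *LRP2*.

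*CCBE1* (ENSG00000183287.14, chr18:59430939-59697662, minus strand) encodes a secreted matrix protein that helps the protease *ADAMTS3* cleave the growth factor *VEGFC* and is required for lymphatic vessels. Its loss causes Hennekam syndrome. It had 3, 11 and 6 counts in control libraries 1, 3 and 4 and 315, 475 and 580 counts in Ad CMV 3xFlag-*Esrrg* libraries 2, 3 and 4. The control libraries were all near the floor of detection and the treated ones were all high. The mean was 0.214 ± 0.128 CPM (SD, n = 3) in controls and 14.3 ± 2.63 CPM (SD, n = 3) with ERRγ, a fold of 66.7 (95% counting interval 43.1 to 110, exact binomial) and a fitted log2 fold change of 6.02 with a standard error of 0.29. Counting intervals here and below cover counting error only. The fold ran from 53.3 without control library 1 to 99.5 without control library 3.

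Of 13 genes of the *VEGFC* axis listed as partners of *CCBE1*, 9 were tested, 2 (22.2%) were called higher and 1 lower. Among tested protein-coding genes 25.9% were called higher and 12.4% lower. The median log2 fold change was 0.099, beside 0.12 over tested protein-coding genes and -0.10 over all tested genes. *NRP2*, a coreceptor for *VEGFC*, rose from 4259, 4743 and 4892 counts to 6588, 8216 and 8885 (log2 fold change 0.73, SE 0.09, adjusted p = 1.5e-04, edgeR). *VEGFD*, another ligand of the same receptor, rose by 0.71 on the log2 scale (SE 0.24, adjusted p = 0.030, edgeR), a call lost without control library 1 or 3 or without treated library 3, which each left 1 gene of the axis higher, and also lost with the replicate block. When libraries were scaled by size alone, neither *NRP2* nor *VEGFD* was called. *FAT4*, a giant cadherin whose loss also causes Hennekam syndrome, fell by 0.69 (SE 0.13, adjusted p = 0.0016, edgeR). *VEGFC* itself had 60, 75 and 71 counts in controls and 51, 84 and 88 with ERRγ (log2 fold change 0.07), and its groups overlapped. *ADAMTS3* had a log2 fold change of -0.42 (SE 0.09, adjusted p = 0.0041, edgeR), which is under the fold cutoff.

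*SPP1* (ENSG00000118785.14, chr4:87975667-87983532, plus strand) encodes osteopontin, a secreted phosphoprotein of bone and of activated macrophages that binds integrins and *CD44*. It had 22, 29 and 32 counts in controls and 651, 1102 and 1026 counts with ERRγ. Treated library 2 was the lowest of its group and was still far above every control. The mean rose from 0.895 ± 0.10 CPM (SD, n = 3) to 29.1 ± 4.29 CPM (SD, n = 3), a fold of 32.5 (95% counting interval 26.3 to 41.2) and a fitted log2 fold change of 5.01 with a standard error of 0.17. An unstranded count could not separate it from the lncRNA ENSG00000286618 on the other strand, which shares 2.7% of its exon bases and had 3 to 9 counts per library.

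Of 10 osteopontin receptor genes, 8 were tested, 3 (37.5%) were called higher and 0 lower. The shares of tested protein-coding genes were 25.9% higher and 12.4% lower. The median log2 fold change of the receptor genes was 0.13, beside 0.12 over tested protein-coding genes. *ITGA5*, the α subunit of the fibronectin receptor, rose from 1938, 2322 and 2413 counts to 4526, 6944 and 7396 (log2 fold change 1.45, SE 0.11, adjusted p = 1.3e-05, edgeR). *ITGB5*, a partner of αv, rose by 1.12 (SE 0.12, adjusted p = 6.5e-05, edgeR) and *ITGB3*, another αv partner, by 0.62 (SE 0.17, adjusted p = 0.014, edgeR). The *ITGB3* call was lost without control library 1 or 4, without treated library 3 or 4, and when libraries were scaled by size alone. *ITGAV* (log2 fold change 0.08), *ITGB1* (-0.03) and *CD44* (0.18) did not pass the test. Of 11 genes whose products modify osteopontin, 8 were tested, 3 (37.5%) were called higher and 0 lower. *MMP3*, a matrix metalloproteinase that cleaves osteopontin, rose from 28, 52 and 46 counts to 116, 295 and 256 (log2 fold change 2.34, SE 0.29, adjusted p = 1.4e-04, edgeR). *TGM2*, the transglutaminase that crosslinks it, rose by 0.97 (SE 0.15, adjusted p = 5.5e-04, edgeR), and *PHEX*, an endopeptidase of bone, by 0.65 (SE 0.21, adjusted p = 0.025, edgeR). The *PHEX* call was lost without control library 1 or 3 or treated library 2, with the replicate block, and when libraries were scaled by size alone. The 4 relatives of osteopontin in the SIBLING family listed with it, which are matrix phosphoproteins of bone and tooth, had at most 4 counts in any library and none was tested.

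*CABP7* (ENSG00000100314.4, chr22:29720003-29731833, plus strand) encodes a calneuron, an EF-hand calcium sensor of the Golgi that inhibits the lipid kinase *PI4KB* at low calcium. It had 25, 29 and 18 counts in controls and 544, 814 and 890 counts with ERRγ. The control libraries ran from 0.544 to 0.938 CPM, and treated libraries 3 and 4 lay close together. The mean rose from 0.789 ± 0.214 CPM (SD, n = 3) to 23.6 ± 2.94 CPM (SD, n = 3), a fold of 29.8 (95% counting interval 24.1 to 39.1) and a fitted log2 fold change of 4.90 with a standard error of 0.19. The gene shares 399 exon bases, 12.0% of its own, with *ZMAT5* on the other strand, which rose by 0.97 on the log2 scale (SE 0.20, adjusted p = 0.0026, edgeR) from 99, 108 and 127 counts to 132, 268 and 283. The libraries kept strand information, but the strand setting of the counting is not given in the sources used here. Reads from where the genes overlap therefore cannot be told apart.

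Of 19 calcium sensor and PI4 kinase genes, 14 were tested, 5 (35.7%) were called higher and 1 lower. The shares of tested protein-coding genes were 25.9% higher and 12.4% lower. The median log2 fold change of the list was 0.27, beside 0.12 over tested protein-coding genes. *PI4KB*, the kinase that calneurons inhibit, rose from 2832, 3192 and 3388 counts to 4036, 6459 and 6849 (log2 fold change 0.83, SE 0.12, adjusted p = 2.9e-04, edgeR), a call lost with library size as the only scaling. *ARF1*, the small GTPase that recruits *PI4KB* to the Golgi, rose by 1.18 (SE 0.17, adjusted p = 3.4e-04, edgeR). *PI4K2A*, the type II kinase of the trans-Golgi and endosomes, rose by 1.13 (SE 0.14, adjusted p = 1.4e-04, edgeR), and *NCS1*, a neuronal calcium sensor that activates *PI4KB*, by 1.04 (SE 0.13, adjusted p = 1.4e-04, edgeR). *HPCAL1*, a visinin-like sensor, was the gene called lower (log2 fold change -0.68, SE 0.12, adjusted p = 0.0011, edgeR), a call lost with DESeq2 and without treated library 2. Without control library 1 there were 2 genes called lower. *CALN1*, the other calneuron, had 0 counts in every library.

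*FRMD1* (ENSG00000153303.17, chr6:168053095-168101511, minus strand) encodes a little-studied protein with a FERM domain, the module that links membrane proteins to the cortical cytoskeleton. Its relative *FRMD6* acts on the Hippo pathway of growth control. *FRMD1* had 7, 1 and 2 counts in controls and 98, 126 and 128 counts with ERRγ. The 3 treated libraries were nearly level. The mean rose from 0.114 ± 0.117 CPM (SD, n = 3) to 3.72 ± 0.0490 CPM (SD, n = 3). The ratio of the means was 32.7 (95% counting interval 18.5 to 72.3), and 25.6 with each control library set to no less than 3 counts. The fitted log2 fold change was 5.04 with a standard error of 0.39. The control level rested on 10 counts in all, of which 7 were in control library 1, and without that library the floored fold was 39.7.

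Of 22 FERM domain genes, 18 were tested, 5 (27.8%) were called higher and 6 lower, with a median log2 fold change of -0.068. The shares of tested protein-coding genes were 25.9% higher and 12.4% lower, with a median of 0.12. *FRMPD2*, a scaffold with FERM and PDZ domains, rose from 11, 5 and 7 counts to 29, 40 and 40 (log2 fold change 2.18, SE 0.34, adjusted p = 5.5e-04, edgeR). *EZR*, the membrane-cytoskeleton linker ezrin, rose by 1.36 (SE 0.16, adjusted p = 1.2e-04, edgeR), and *NF2*, the tumour suppressor merlin, by 1.11 (SE 0.13, adjusted p = 9.9e-05, edgeR). *EPB41L5*, which regulates cell polarity and adhesion, fell by 1.37 (SE 0.09, adjusted p = 4.0e-06, edgeR). *FRMD6* fell from 12115, 12260 and 13811 counts to 5923, 7522 and 7635 (log2 fold change -0.89, SE 0.09, adjusted p = 7.0e-05, edgeR), so *FRMD1* and its relative moved in opposite directions from very different levels. Of 10 Hippo kinases and coactivators, all were tested, 1 was called higher and 2 lower, with a median log2 fold change of -0.29. *WWC1*, the upstream activator KIBRA, rose by 1.89 (SE 0.11, adjusted p = 2.2e-06, edgeR), *MOB1B*, a kinase adaptor, fell by 0.69 (SE 0.11, adjusted p = 5.8e-04, edgeR), and *YAP1*, the coactivator, fell by 0.67 (SE 0.10, adjusted p = 3.3e-04, edgeR). The *YAP1* call was lost with DESeq2.

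*KLHDC8A* (ENSG00000162873.15, chr1:205336061-205357090, minus strand) encodes a protein of kelch repeats, which fold into a propeller that binds other proteins. It was the lowest of the 6, with 1, 2 and 3 counts in controls and 24, 37 and 31 counts with ERRγ. No control library rose above the floor of 3 counts. The mean rose from 0.0636 ± 0.0276 CPM (SD, n = 3) to 0.969 ± 0.113 CPM (SD, n = 3). The ratio of the means was 15.2 (95% counting interval 6.62 to 41.8), and 9.89 with each control library set to no less than 3 counts. The fitted log2 fold change was 3.82 with a standard error of 0.41. In all, 9 tested genes had 3 counts or fewer in every control library and at least 20 in every treated library, and *KLHDC8A* was the only one of the 6 among them. Of 9 genes of the KLHDC family, 7 were tested, 1 (14.3%) was called higher and 1 lower, with a median log2 fold change of 0.062. The shares of tested protein-coding genes were 25.9% higher and 12.4% lower, with a median of 0.12. *KLHDC3* rose by 1.33 (SE 0.16, adjusted p = 1.3e-04, edgeR) and *KLHDC1* fell by 1.05 (SE 0.20, adjusted p = 0.0016, edgeR). Both are substrate receptors of ubiquitin ligases. Without treated library 2 there were 2 members called higher. *KLHDC8B*, the closest relative, had 446, 556 and 593 counts in controls and 442, 763 and 839 with ERRγ (log2 fold change 0.31, SE 0.14, adjusted p = 0.10, edgeR), and its groups overlapped.

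*FAM131C* (ENSG00000185519.9, chr1:16057769-16073651, minus strand) has no well-established function. It had 21, 45 and 24 counts in controls and 249, 472 and 551 counts with ERRγ. Control library 3 was the highest of its group, and treated library 2 was the lowest of its own. The mean rose from 0.975 ± 0.416 CPM (SD, n = 3) to 13.2 ± 3.51 CPM (SD, n = 3), a fold of 13.5 (95% counting interval 11.1 to 17.3) and a fitted log2 fold change of 3.75 with a standard error of 0.29. The fold was 17.9 without control library 3. Neither of its 2 relatives was called. *FAM131A* had 859, 931 and 946 counts in controls and 733, 957 and 1099 with ERRγ (log2 fold change -0.016, SE 0.10, adjusted p = 0.90, edgeR). *FAM131B* had 313, 402 and 384 counts and then 352, 602 and 624 (log2 fold change 0.47, SE 0.14, adjusted p = 0.019, edgeR), under the fold cutoff, and was called higher without treated library 2.

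**Figure D3:**
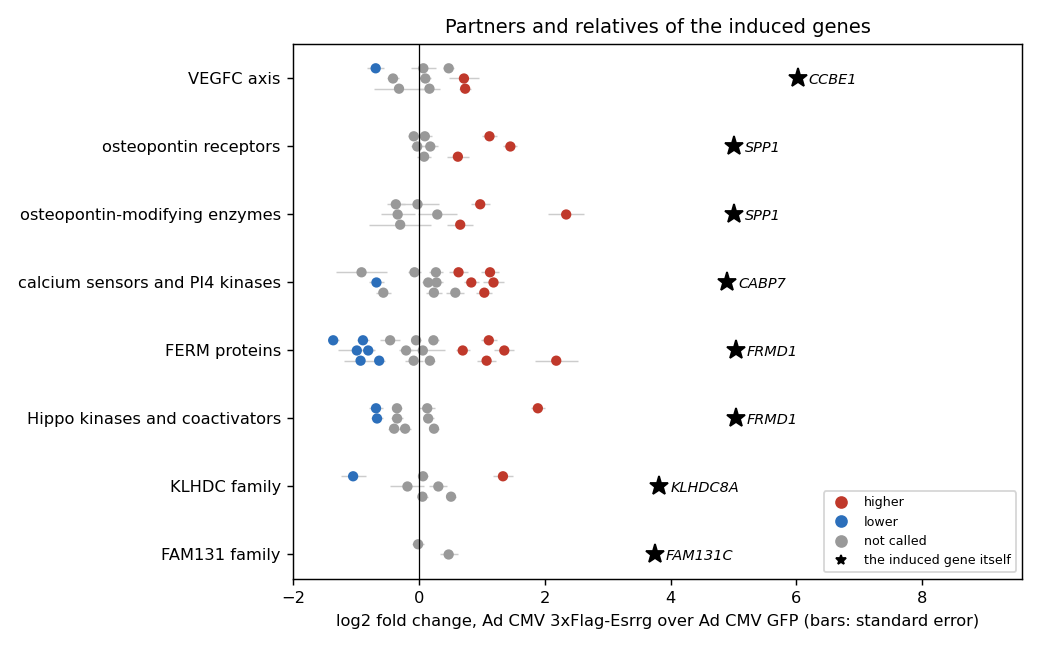
Log2 fold change of the tested genes of each list (circles, with bars of the standard error), beside the induced gene of the list (star). Red circles were called higher, blue circles lower and grey circles not called. Each star lies to the right of every circle on its line, and the called circles span -1.37 to 2.34.

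Over all 9 lists, 100 genes were listed and 76 tested. Of these 20 (26.3%) were called higher and 11 lower, beside 25.9% and 12.4% of tested protein-coding genes, and the median log2 fold change was 0.095 beside 0.12. The partners and relatives were thus called at rates near those of protein-coding genes at large.

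Per kilobase of the Ensembl canonical transcript, the 6 genes entered the treated group at very different levels. With ERRγ the order of mean CPM per kb was *SPP1* (18.6 ± 2.75, SD, n = 3), *FAM131C* (7.66 ± 2.04), *CABP7* (7.06 ± 0.881), *CCBE1* (2.28 ± 0.419), *FRMD1* (0.645 ± 0.00849) and *KLHDC8A* (0.326 ± 0.0380). *FAM131C* and *CABP7* overlapped between libraries, and the other neighbours in this order did not. *SPP1* passed from percentile 12.1 to percentile 73.1 of 13746 tested protein-coding genes, *FAM131C* from 12.0 to 50.1, *CABP7* from 5.21 to 48.0, *CCBE1* from 0.255 to 26.9, *FRMD1* from 0.131 to 14.0 and *KLHDC8A* from 0.145 to 8.76. *CCBE1*, *FRMD1* and *KLHDC8A* passed the filter on low counts only through the treated libraries. Their very low control percentiles among tested genes are therefore largely set by that filter and are no separate result. In controls, *SPP1* and *FAM131C* led with 0.573 and 0.567 CPM per kb and overlapped, *CABP7* followed with 0.237, and *CCBE1*, *KLHDC8A* and *FRMD1* had 0.0342, 0.0214 and 0.0197, with overlapping libraries.

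Within the Ad CMV 3xFlag-*Esrrg* group, *ESRRG* was lowest in library 2, and the 6 genes differed in how far they were lower there too. Relative to the control mean, *ESRRG* in CPM was 6.55-fold higher in library 2, 8.88-fold in library 3 and 8.94-fold in library 4. The same values were 54.9, 65.8 and 79.4 for *CCBE1*, 27.2, 36.6 and 33.6 for *SPP1*, 25.8, 30.6 and 33.1 for *CABP7*, 9.55, 14.4 and 16.6 for *FAM131C*, 32.2, 32.9 and 33.0 for *FRMD1* and 14.1, 17.3 and 14.3 for *KLHDC8A*. Library 2 was thus the lowest of the 3 for each of the 6 genes, although *FRMD1* was nearly level and *KLHDC8A* differed little between libraries 2 and 4. When libraries were scaled by size alone, this direction turned for *FRMD1* and *KLHDC8A*, as given below.

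The ratio of library 2 to the mean of libraries 3 and 4 was 0.735 for *ESRRG* (95% counting interval 0.722 to 0.748). It was 0.617 for *FAM131C* (0.535 to 0.709), below that of *ESRRG* by more than counting error. It was 0.757 for *CCBE1* (0.665 to 0.859), 0.775 for *SPP1* (0.709 to 0.847) and 0.809 for *CABP7* (0.733 to 0.891), intervals that hold the value of *ESRRG*. It was 0.978 for *FRMD1* (0.766 to 1.24), an interval that leaves out 0.735, and 0.894 for *KLHDC8A* (0.537 to 1.44), whose counts are too low to place it. Between libraries 4 and 3, where *ESRRG* was level with a ratio of 1.01, *CCBE1* had a ratio of 1.21 (1.07 to 1.36) and *FAM131C* 1.15 (1.02 to 1.31). These intervals compare single libraries and leave out the spread between libraries, so they do not show that a gene moved apart from *ESRRG*. With 3 libraries no relation to the *ESRRG* level can be tested.

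A low library 2 was also the general pattern of genes called higher. Among 3737 such genes averaging 50 counts or more, the same ratio had a median of 0.727, with the middle 50% between 0.658 and 0.802, and 95.8% lay below 1. The median was 0.993 for 9921 genes that were not called. Library 2 also had the larger share of reads outside genes. The *ESRRG* level and this difference between libraries cannot be told apart, and the part of the latter in these ratios was not tested. With library size as the only scaling the ratio of *FAM131C* was 0.741 and that of *ESRRG* 0.882, whereas those of *FRMD1* (1.17) and *KLHDC8A* (1.07) passed 1.

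**Figure D4:**
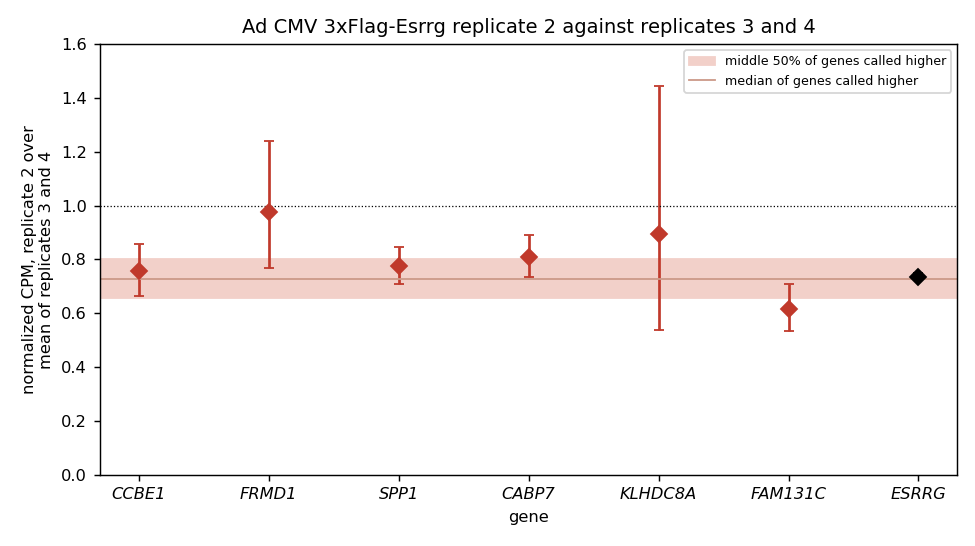
Ratio of CPM in Ad CMV 3xFlag-*Esrrg* library (replicate) 2 to the mean of libraries 3 and 4 for the 6 genes and *ESRRG*, with bars of the 95% counting interval. The band and line give the middle 50% (0.658 to 0.802) and the median (0.727) of genes called higher. *FAM131C* lies lowest at 0.617, *FRMD1* highest at 0.978, and the bar of *KLHDC8A* spans 0.537 to 1.44.

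The nearest protein-coding genes beside the 6 genes, without those that overlap them, were compared in the same fit. *ZMAT5*, which overlaps *CABP7* and was called higher as given above, is therefore not counted here. Of 11 neighbours described here, 7 were tested, 4 were called higher, 0 lower and 3 not called, beside 25.9% higher and 12.4% lower among tested protein-coding genes. Those called lay beside *CABP7*, *KLHDC8A* and *FAM131C*. Beside *CABP7*, *UQCR10*, a subunit of respiratory complex III 35.5 kb away, rose from 218, 320 and 309 counts to 623, 1452 and 1402 (log2 fold change 1.97, SE 0.22, adjusted p = 8.3e-05, edgeR), and *NF2*, 21.4 kb away on the other side, rose as given above. Beside *KLHDC8A*, *NUAK2*, an AMPK-related kinase 14.3 kb away, rose from 51, 72 and 88 counts to 146, 220 and 280 (log2 fold change 1.57, SE 0.21, adjusted p = 2.1e-04, edgeR). Beside *FAM131C*, *EPHA2*, an ephrin receptor 50.7 kb away, rose from 1115, 1358 and 1398 counts to 2760, 4063 and 4509 (log2 fold change 1.5, SE 0.11, adjusted p = 9.7e-06, edgeR). All of these rises were smaller than that of the gene they flank, an outcome that the choice of the 6 genes made nearly certain.

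The neighbours of *CCBE1* and *SPP1* did not pass. *LMAN1*, a cargo receptor of the secretory pathway 71.7 kb from *CCBE1*, had a log2 fold change of -0.09 (SE 0.09), and *PMAIP1*, the BH3-only protein Noxa, 202 kb away on the other side, had 0.32 (SE 0.10, adjusted p = 0.019, edgeR), under the fold cutoff. *PKD2*, a cation channel 24.1 kb from *SPP1*, had 0.02 (SE 0.09), and *MEPE* on the other side had at most 4 counts. *KIF25* and *DACT2* beside *FRMD1* and *LEMD1* beside *KLHDC8A* were too low to be tested, with at most 9, 0 and 3 counts. *CABP7-DT*, whose start lies 144 bases from that of *CABP7* on the other strand, had 1, 1 and 2 counts in controls and 5, 10 and 18 with ERRγ and was not tested.

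**Figure D5:**
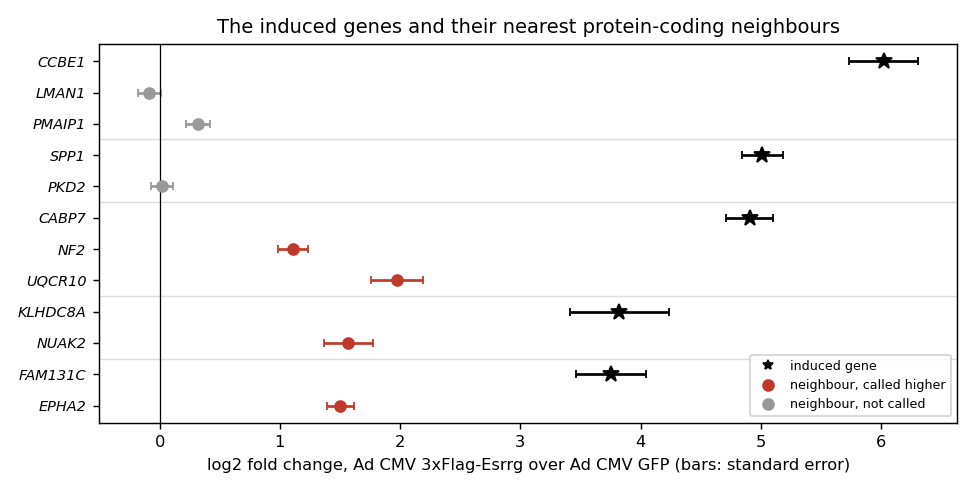
Log2 fold change, with bars of the standard error, of the nearest tested, non-overlapping protein-coding genes on either side, grouped under the induced gene they flank (star). The neighbours of *CABP7*, *KLHDC8A* and *FAM131C* lie between 1.11 and 1.97, those of *CCBE1* and *SPP1* between -0.09 and 0.32, and *FRMD1* has no tested neighbour.

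Markers of other cell types were set beside these rises, since *SPP1* is a known product of macrophages and osteoblasts. The 9 macrophage markers summed to 3.05 to 3.59 CPM in controls and 2.99 to 3.58 CPM with ERRγ, mostly *CSF1R*, with *C1QA* and *C1QB* at 0 in every library. Only 2 of the 9 were high enough to be tested and neither was called. *CSF1R* was lower, with 65, 87 and 88 counts in controls and 53, 67 and 74 with ERRγ (log2 fold change -0.34). *CD14*, not tested, was mixed, with 6, 9 and 9 counts and then 3, 11 and 14. *PTPRC* had 10, 12 and 10 counts in controls and 20, 22 and 15 with ERRγ (log2 fold change 0.80), *ITGAM* 1, 1 and 0 and then 1, 8 and 9, and *MRC1* 4, 1 and 2 and then 3, 9 and 9. The 7 osteoblast markers, dominated by *COL1A1*, summed to 390 to 406 CPM in controls and 328 to 387 CPM with ERRγ, and *IBSP* and *DMP1* had at most 2 counts. The 7 endothelial markers, mostly *PROX1*, summed to 59.9 to 66.2 CPM and 64.8 to 73.0 CPM. Of these *PECAM1* was called higher, with 28, 41 and 28 counts and then 47, 65 and 71 (log2 fold change 0.87, adjusted p = 0.011, edgeR). The 6 fibroblast markers, all tested, summed to 3686 to 3818 CPM and 3067 to 3329 CPM, with 4 called lower. The 6 epithelial markers summed to 39.4 to 45.8 CPM and 62.9 to 96.8 CPM, with 1 called higher and 1 not tested. The gene called was *KRT18*, with 526, 775 and 622 counts and then 1178, 2465 and 2294 (log2 fold change 1.56). *KRT8* (0.18), *KRT19* (0.51), *EPCAM* (-0.27) and *CLDN4* (-0.57) were not called, and *CDH1* had at most 2 counts. The 12 neuroblastoma markers summed to 866 to 925 CPM in controls and 616 to 815 CPM with ERRγ. Of these, 4 were called lower, 1 higher and 2 were not tested. Beside these calls of markers, 25.9% of tested protein-coding genes were called higher and 12.4% lower. The part of these marker differences in the results was not tested.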

How the data were processed

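RNA was sequenced from 6 SH-SY5Y libraries, 3 per group, prepared by rRNA depletion with a directional kit. The deposited values are raw counts per gene, made by the authors from reads trimmed with Trim Galore 0.6.7, aligned with STAR 2.7.9a to GRCh38 and counted with HTSeq 0.11.3, as named in the submitters' processing notes, which also name CASAVA and DESeq2. The annotation release and the strand setting are not given in the sources used here. Of 67060 identifiers, 60419 (90.1%) matched GENCODE release 44, and 5 summary entries were left out of library sizes.

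The test was edgeR 4.0.16 in R 4.3.3 (filterByExpr, TMM scaling, quasi-likelihood test, Benjamini-Hochberg adjustment over 24500 genes). Each standard error is the log2 fold change divided by the root of its F statistic. Control libraries were set to no less than 3 counts for folds, except for the ratios of means given for *FRMD1* and *KLHDC8A*. The gaps between the groups and the folds of single treated libraries over the control mean used no such floor. Counting intervals are exact binomial at 95%. With 3 libraries per group, an exact two-sided permutation test of a value for 1 gene cannot go below 0.1, so none was run. Log values use a prior count of 2. Promoter windows and start sites came from RefSeq (GRCh38.p14).

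The 6 genes and the 9 lists of partners were chosen with earlier results of these data known. Named genes were the 6, *ESRRG*, *LRP2*, up to 4 called genes per list with the largest change and a mean of at least 20 counts, 5 close relatives, nearest protein-coding neighbours (1 is not reported here) and, for each of the 6, the 2 most alike genes. *VEGFC*, *ADAMTS3*, *ITGAV*, *ITGB1*, *CD44*, *ZMAT5*, *PTPRC*, *CSF1R*, *CD14*, *ITGAM*, *MRC1*, *PECAM1*, *KRT18*, *KRT8*, *KRT19*, *EPCAM*, *CLDN4*, *CDH1*, *CABP7-DT* and ENSG00000286618 were named after their values were seen. Alternatives were DESeq2 1.42.0, RLE size factors, library size only, no filter, no floor, medians, all reads as the total, each library left out, and the replicate number as a block. The fits were tested on simulated data. Tables and plots used matplotlib 3.10.9, scipy 1.17.1, pandas 2.3.3 and numpy 2.4.6 under Python 3.11.15.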

Additional observations from a re-analysis of the deposited data

How the results depend on the processing

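With library size as the only scaling, the median log2 fold change of all genes moved from -0.10 to -0.42 and 22.5% of called genes were higher against 50.7% (62.7% with DESeq2, 58.1% with RLE factors), with 2200 higher and 7566 lower. That scaling gave folds of 25.8 for *SPP1* and 7.90 for *KLHDC8A*, library 2 ratios of 0.909 for *CCBE1*, 0.929 for *SPP1*, 0.971 for *CABP7*, 0.741 for *FAM131C*, 1.17 for *FRMD1*, 1.07 for *KLHDC8A* and 0.882 for *ESRRG* (0.694 with RLE factors), 0 higher and 2 lower in the *VEGFC* axis, 1 lower osteopontin-modifying enzyme, 3 higher and 3 lower calcium sensors and PI4 kinases, 5 lower Hippo genes, and log2 fold changes of -0.0062 for *PMAIP1* and -0.30 for *PKD2*. It kept 13 of the 20 list genes called higher and 11 of the 11 lower. DESeq2 kept 20 and 6, with 0 lower calcium sensors, 3 lower FERM genes, 1 lower Hippo gene, 2 higher KLHDC genes (2 with RLE factors) and 0.0052 for *LMAN1*. No list gene that was called changed sign under any alternative.

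The groups share replicate numbers 3 and 4. Deviations of the same-numbered libraries correlated at 0.075 and -1e-04 across genes, and no label gives a shared batch, so the numbers were not taken to pair the libraries. With the replicate block there were 4742 genes higher and 5693 lower, 1 higher in the *VEGFC* axis, 3 lower calcium sensors and PI4 kinases, and -0.0048 for *PKD2*.

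Leaving out each library gave 3710 to 5820 genes higher and 2895 to 5141 lower, 1 to 2 higher in the *VEGFC* axis, 1 to 2 lower calcium sensors and PI4 kinases, 1 to 2 higher KLHDC genes, 0 to 1 higher FAM131 relatives, and -0.12 to 0.012 for *LMAN1*. The highest totals of genes came without treated library 2. The TMM-scaled fold of *KLHDC8A* was 15.2 with no floor. Few counts limit *KLHDC8A* and the control level of *FRMD1*. The causes of these changes were not tested.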

Other observations

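The genes whose pattern over the 6 libraries was closest to each of the 6, by root mean square difference in centred log2 CPM among 24147 genes averaging 10 counts or more, are given here as a description. The prior count of 2 compresses genes of few counts. For *SPP1* they were *TRIM72* (0.26), a muscle protein of membrane repair, and *ELFN1* (0.28), a synaptic adhesion protein. For *CCBE1* they were the same genes (0.43 and 0.78). For *CABP7* they were *ELFN1* (0.33) and *UNC5A* (0.36), a netrin receptor.

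*TRIM72* went from 0 counts in every control library to 56, 99 and 102 counts, *ELFN1* from 0 in every control library to 26, 54 and 50, and *UNC5A* from 57, 54 and 62 to 874, 1303 and 1454. For *FRMD1* the closest were *EPHB1* (0.43), an ephrin receptor with 17, 10 and 21 counts and then 283, 412 and 439, and the pseudogene *RPLP0P2* (0.49), whose reads may be shared with its parent gene. For *KLHDC8A* they were *ARMH4* (0.14) and *FAM107A* (0.19), and for *FAM131C* *APOH* (0.20), a plasma glycoprotein with 2, 6 and 2 counts and then 40, 96 and 69, and the lncRNA ENSG00000287001 (0.25). Among the 6 themselves *SPP1* and *CABP7* were closest (0.30) and *CCBE1* and *KLHDC8A* farthest apart (1.42).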
